A study of Mus musculus with 20 samples.

Results

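The SLC25 family holds the carriers of the inner mitochondrial membrane, which exchange nucleotides, phosphate, amino acids, keto acids and cofactors between the cytosol and the matrix. A few relatives sit in the outer membrane or in peroxisomes. All share a fold built from repeats of the same module, and they differ in the substrate they carry. In the brain they supply ATP to synapses and carry aspartate and glutamate for the malate-aspartate shuttle, and some of them sense cytosolic calcium. The members were the protein-coding genes whose symbol is Slc25a followed by a number, a rule on symbol and gene type alone, which gave 47 of 48709 annotated genes. They lay on 19 chromosomes, and 4 of them, Slc25a5, Slc25a14, Slc25a43 and Slc25a53, were X-linked.

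RNA was sequenced from the hippocampus of 20 young adult C57BL/6 mice (C57BL/6J in the study's methods), 5 of each sex per exposure, giving 4 groups (control and nPM males, control and nPM females). nPM is nanosized particulate matter collected from urban air. Dams of the nPM groups inhaled it at 300 μg/m3 (the sample labels write mg for μg) from gestational day 2 to birth, for 5 h on each of 3 days a week, and dams of the controls inhaled filtered air. Labelled ages of the females were 17.71 to 18.29 weeks for controls and 18 to 18.29 weeks after nPM. The males were 18.57 to 19.14 and 18.86 to 19.14 weeks old, respectively. The study's methods describe EdU injections for the males and then state that all animals received EdU, so whether females did is unclear. The offspring of each exposure came from 5 litters, which the labels do not tie to samples, so that a group may hold littermates.

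Between 19092067 and 38663408 reads were counted on genes per library, and the lowest totals were in nPM females (19092067 to 29252770). All 8 listed markers of hippocampal neurons were detected in every library. Markers of the choroid plexus, which lies against the hippocampus, were all detected and summed to between 40.3 and 8600 CPM (read counts relative to the library total, scaled by the trimmed mean of M-values). Among males their sum reached 1000 CPM in 3 of 5 controls and 2 of 5 nPM libraries, and among females in 0 and 2 of 5, respectively. Results without those libraries are given where a call depends on them. In bulk tissue, fewer cells of a type and less RNA per cell cannot be told apart.

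The adenine nucleotide translocases, which exchange ADP for ATP across the inner membrane, dominated the family. Slc25a4, the form of heart, muscle and brain, had a level of 205 RPKM (reads per kilobase of gene length, scaled to library size like the CPM) averaged over the 20 hippocampi, with values from 162 to 241. Slc25a5, the form found in most tissues, had 118 RPKM (89.97 to 144). Slc25a4 was above Slc25a5 in 20 of 20 samples, and together they held 48.7% ± 2.31 (SD, n = 20) of the summed RPKM of the family. The 8 most abundant members held 71.2% ± 1.38. How reads with several alignments were counted is not given in the sources used here, so the split between these close copies is uncertain.

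Slc25a3, the phosphate carrier that feeds the ATP synthase, followed at 34.3 RPKM, and Slc25a11, which exchanges oxoglutarate for malate, at 30.2 RPKM. Slc25a3 was the higher of this pair in 18 of 20 samples, with overlapping ranges. Slc25a23, a calcium-regulated carrier of ATP-Mg and phosphate, had 23.1 RPKM and Slc25a46, a protein of the outer membrane, 22.8 RPKM. These did not differ beyond their spread, with Slc25a23 higher in 9 of 20 samples. Slc25a12, the aspartate/glutamate carrier of brain and muscle, and Slc25a44, a carrier of branched-chain amino acids, both had 19.3 RPKM. Slc25a12 was the higher of these in 11 of 20 samples.

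**Figure D1:**
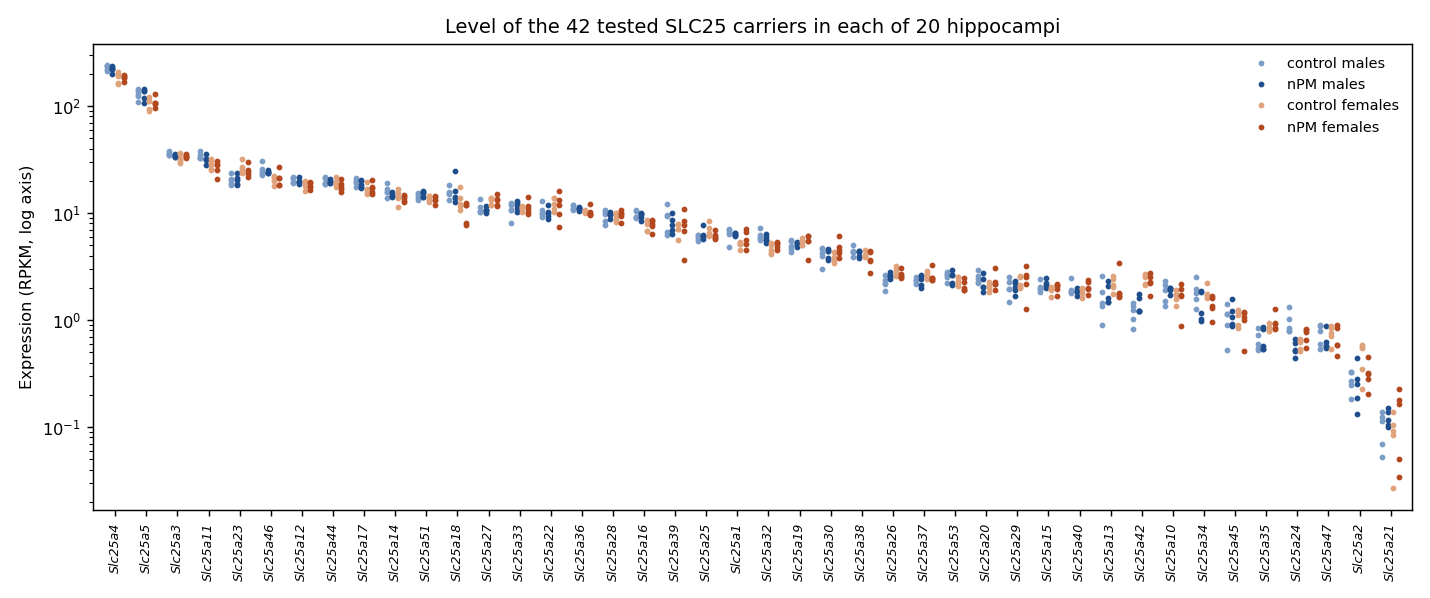
Expression of the SLC25 carriers in RPKM on a log axis, ordered by the mean over 20 hippocampi. Each point is 1 sample and color gives the group, and Slc25a4 and Slc25a5 (means of 205 and 118 RPKM) stand above all other members.

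Carriers with related substrates differed widely in level. Among the calcium-sensing carriers of ATP-Mg and phosphate, Slc25a25 had 6.36 RPKM and Slc25a24 0.71 RPKM, against the 23.1 RPKM of Slc25a23. Of the aspartate/glutamate carriers, Slc25a13, the form typical of liver, had 1.91 RPKM against the 19.3 RPKM of Slc25a12. Of the mitochondrial glutamate carriers, Slc25a18, which is enriched in astrocytes, had 13.9 RPKM and Slc25a22 had 11.1 RPKM. Relatives of the uncoupling proteins were at 14.8 RPKM (Slc25a14), 12 RPKM (Slc25a27) and 4.20 RPKM (Slc25a30). The mitoferrins, which import iron, were at 9.45 RPKM (Slc25a28) and 2.48 RPKM (Slc25a37). The citrate carrier Slc25a1 had 5.88 RPKM, and the acylcarnitine carrier of fatty acid oxidation, Slc25a20, had 2.27 RPKM.

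In all, 2 members were above 100 RPKM, 14 were between 10 and 100, 21 between 1 and 10, and 10 were under 1 RPKM. A filter on low counts kept 42 of the 47 members. The 5 left out were Slc25a31, the testis form of the translocase, with 0 to 20 counts per library, Slc25a43 (0 to 12), Slc25a48 (0 to 8), Slc25a41 (0 to 3) and Slc25a54 (0 to 2). A count of 0 allows up to 3 counts, and this limit covers counting error alone. The coefficient of variation within groups was lowest for Slc25a3 (4.51%) and for Slc25a36, a pyrimidine nucleotide carrier (5.54%). It was highest, at 41.4%, for Slc25a21, an oxodicarboxylate carrier with a median of 17 counts. The median over the 42 members was 10.5%, beside 16.4% over all 19797 genes tested. Members and all genes were not matched for read depth.

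With both sexes analyzed together, no SLC25 carrier passed the test for gestational nPM. By limma-voom with sex as a covariate, 0 of the 42 members passed the study's threshold of p under 0.005 (background over all genes tested 0.141%), and 0 had an adjusted p under 0.05. The edgeR and DESeq2 tests also gave 0 members at p under 0.005. At an unadjusted p under 0.05 there was 1 member, Slc25a34 (background 2.1%). Log2 differences, nPM minus control, ranged from -0.41 to 0.38 with a median of -0.01, beside -0.01 over all genes. Their standard errors had a median of 0.072, so that small differences were not detectable with these samples.

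Slc25a34 (ENSMUSG00000040740.7, mm10 chromosome 4, 141618824 to 141623821) encodes a carrier whose substrate is not settled. Control females had 4.32, 5.92, 4.49, 4.59 and 4.63 CPM, and nPM females had 3.47, 3.58, 4.27, 2.57 and 4.47 CPM. The male controls had 5.22, 3.39, 4.80, 4.15 and 6.79 CPM, and males after nPM 2.62, 4.93, 3.08, 4.95 and 2.72 CPM. A single nPM female exceeded the lowest control female, whereas the male groups overlapped broadly. The log2 difference over both sexes was -0.41 (SE 0.14, limma adjusted p = 0.9998), with a rank of 62 by p among all genes. Within a sex, exact permutation tests (two-sided) gave p = 0.0159 in females and p = 0.135 in males. Without control male 2, nPM male 2 or nPM male 4 it passed p under 0.005, with log2 differences of -0.46, -0.46 and -0.47.

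In males, Slc25a24 was lower after nPM, by a fold of 0.58. By limma it was the only one of 42 members at p under 0.005 (2.38%, background 0.207%). It was also the only one under 0.05 by limma (background 4.28%). Slc25a3 had an exact permutation p = 0.0238 in males (limma p = 0.179), at a log2 difference of -0.07 and with overlapping groups. Slc25a24 (ENSMUSG00000040322.10, mm10 chromosome 3, 109123149 to 109168457) encodes an inner membrane carrier that moves ATP-Mg against phosphate when cytosolic calcium rises. Control males had 4.59, 2.89, 2.70, 3.50 and 2.74 CPM, and nPM males 1.51, 2.11, 2.29, 1.77 and 1.78 CPM. Every nPM male was below every control male. Such groups without overlap were found for 1 of 42 members in males (background 0.662%) and for 0 in females (background 0.349%). These levels rested on 73 to 134 counts per control male and 57 to 79 per nPM male. The log2 difference was -0.78 (SE 0.19), with a limma p = 0.00137 and an exact permutation p = 0.00794 (two-sided). The latter is the smallest value that 5 samples against 5 allow. The limma adjusted p = 0.963 did not pass.

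In females, Slc25a24 was at 2.30, 1.83, 1.78, 2.14 and 2.22 CPM in controls and at 2.78, 2.67, 2.26, 1.86 and 2.86 CPM after nPM. The female groups overlapped, with 3 nPM females above all controls. The log2 difference was 0.30 (SE 0.17, exact permutation p = 0.0794). The difference between the effects, males minus females, was tested as an interaction in all 20 samples. It was -1.06 (SE 0.24, limma p = 0.000323, limma adjusted p = 0.987), with an exact permutation p = 0.000472 over all regroupings of exposure within sex. For this and the other interactions, the regroupings assume no nPM effect in either sex. Their permutation p is therefore not a test of equal effects alone. By limma the interaction of Slc25a24 ranked 3 among all genes tested.

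Choroid plexus markers summed to 40.3 to 7640 CPM (median 3080) in control males and 92.2 to 5840 CPM (median 872) in nPM males, with overlapping ranges. In the libraries under 1000 CPM, 2 control and 3 nPM males, the log2 difference of Slc25a24 in males was -1.06 (SE 0.29, limma adjusted p = 0.693) and no longer passed p under 0.005. The interaction in those libraries was -1.22 (SE 0.34, limma adjusted p = 0.626) and did pass. With the choroid plexus level as a covariate the difference in males was -0.76 (SE 0.19, limma adjusted p = 0.855), which also passed p under 0.005. In females the difference in the libraries under 1000 CPM was 0.15 (SE 0.21).

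Meningeal fibroblast markers, summed per sample, had the same sample order as Slc25a24 in control males and nPM females. In nPM males and control females the order differed. The sums were at 159, 71.0, 30.1, 104 and 50.3 CPM in control males 1 to 5, and at 46.3 to 70.8 CPM in nPM males. In nPM females 1 to 5 they were at 74.6, 56.5, 30.3, 20.1 and 128 CPM, again in the order of Slc25a24, and in the female controls at 24.7 to 82.2 CPM. All 6 of these markers were detected in every library. Dcn reached 112 CPM and the next highest, Col1a2, 38.8 CPM, and the sample order of single markers was not examined. With the summed level of the 6 markers as a covariate, the log2 difference of Slc25a24 was -0.65 (SE 0.16, limma adjusted p = 0.9999) in males and 0.21 in females. The interaction was then -0.86 (SE 0.20, limma adjusted p = 0.999). The male difference and the interaction passed p under 0.005 in this fit.

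**Figure D2:**
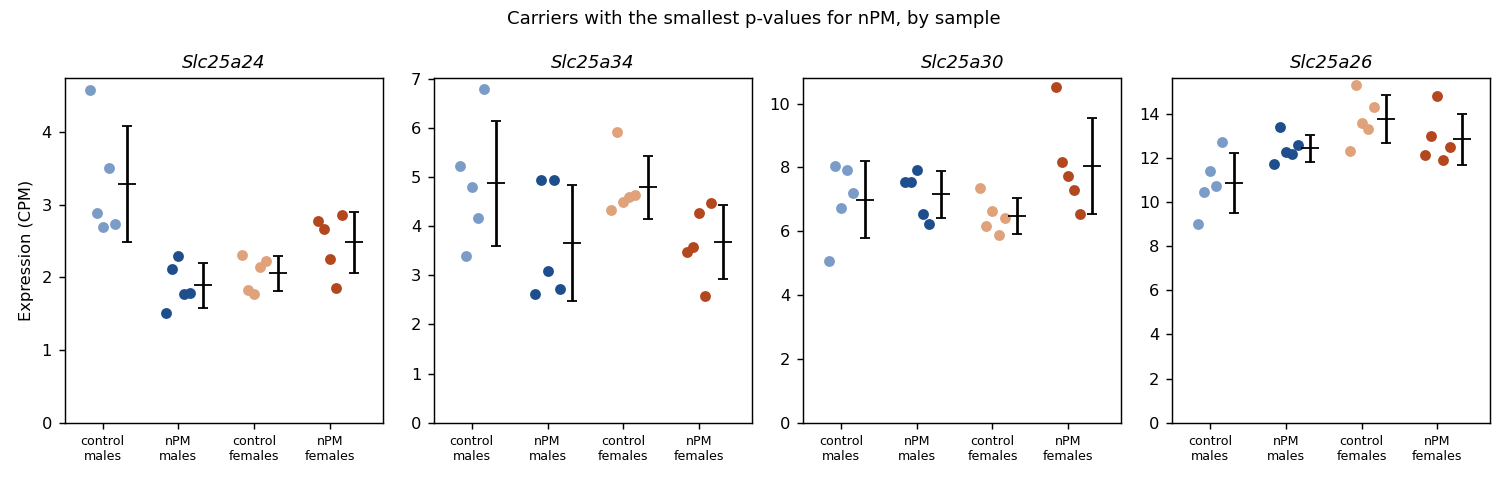
Expression in CPM of Slc25a24, Slc25a34, Slc25a30 and Slc25a26, with 1 point per sample and the mean ± SD of the 5 samples of each group in black. For Slc25a24 all nPM males (1.51 to 2.29 CPM) lie below all control males (2.70 to 4.59 CPM), and the control and nPM groups overlap in every other pair.

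The closest relatives of Slc25a24 did not pass the test. Slc25a23 had a log2 difference of 0.01 in males and -0.07 in females. Slc25a25 had 0.10 in males and -0.15 in females, and the difference between these effects was 0.27 (SE 0.13, limma adjusted p = 0.987, exact permutation p = 0.0465). Slc25a25 overlaps Naif1 on the opposite strand, and whether the counting used strand is not given in the sources used here. Of the 47 members, 17 overlapped a gene on the opposite strand, and the same limit holds for their levels and differences. They include Slc25a11 (Rnf167), Slc25a12, Slc25a16, Slc25a23 (Crb3), Slc25a35 (Rangrf) and Slc25a46. Among the translocases, Slc25a4 had a log2 difference of -0.06 in males (SE 0.061) and 0.02 in females (SE 0.086). For Slc25a5 the difference in females was 0.06 (SE 0.10).

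In females, 0 of 42 members passed p under 0.005 by limma (background 0.0909%), and also 0 in the edgeR and DESeq2 tests. At p under 0.05 limma gave 1 member (background 1.99%), and the exact permutation test also gave Slc25a34 (p = 0.0159). The limma member was Slc25a30 (ENSMUSG00000022003.6, mm10 chromosome 14, 75761999 to 75787037), a relative of the uncoupling proteins. Control females had 7.36, 6.15, 6.64, 5.87 and 6.41 CPM, and nPM females 10.5, 8.16, 7.74, 7.28 and 6.53 CPM. The groups overlapped, with 3 nPM females above all controls. The log2 difference was 0.32 (SE 0.14), with an exact permutation p = 0.0397 and a limma adjusted p = 0.9998. Without nPM female 1, the library with the highest sums of choroid plexus (8600 CPM) and striatal markers (271 CPM), it was 0.19 (SE 0.13). In males it was 0.03 (SE 0.13), and the interaction did not pass (limma adjusted p = 0.987).

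Slc25a18, which imports glutamate into mitochondria, had 25.1 ± 5.09 CPM (SD, n = 5) in control females and 19.9 ± 4.44 CPM in nPM females. The log2 difference of -0.32 (SE 0.17) did not pass (exact permutation p = 0.151), and without control female 1 it was -0.21. Summed astrocyte markers were 1610 to 1760 CPM in control females and 1500 to 1800 CPM in nPM females. Slc25a18 overlaps Atp6v1e1 on the opposite strand.

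By limma, the interaction of sex and nPM gave 1 member at p under 0.005 (background 0.217%), Slc25a24. It gave 3 members at p under 0.05 (7.14%, background 3.79%). The other two were Slc25a20 and Slc25a26. Slc25a20 had means of 12 ± 1.38 CPM (SD, n = 5) in male controls and 10.7 ± 1.77 CPM in males after nPM. The female means were 9.94 ± 0.80 CPM for controls and 11.3 ± 2.09 CPM after nPM. Its ranges overlapped in all pairs of groups, and the interaction was -0.39 (SE 0.18), with an exact permutation p = 0.0593 and a limma adjusted p = 0.987. Slc25a26, which imports S-adenosylmethionine, the methyl donor, had means of 10.9 ± 1.36 CPM in male controls and 12.4 ± 0.62 CPM in males after nPM. In females the controls had 13.8 ± 1.1 CPM, against 12.9 ± 1.16 CPM after nPM. The interaction of Slc25a26 was 0.28 (SE 0.13), with an exact permutation p = 0.0173 and a limma adjusted p = 0.987. It overlaps Lrig1 on the opposite strand.

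**Figure D3:**
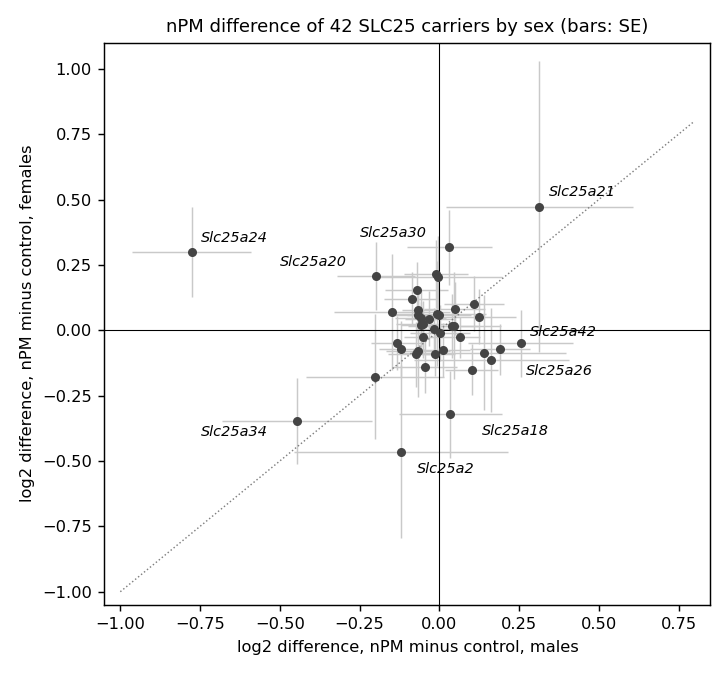
Log2 difference, nPM minus control, in males (horizontal axis) and females (vertical axis) for the 42 tested carriers, with bars of 1 SE and a dotted line of equal effects. Of the 42 points 31 lie within 0.2 of 0 on both axes, and Slc25a24 stands apart at -0.78 in males and 0.30 in females.

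Across the family, 31 of the 42 members had log2 differences within 0.2 of 0 in both sexes, 10 members were lower in both and 7 were higher in both. The shares of all genes within 0.2, lower in both sexes or higher in both sexes were not computed. Median absolute log2 differences of the members were 0.066 in males and 0.078 in females, beside 0.10 and 0.089 over all genes tested. Here, too, read depth was not matched. The signed medians over all genes tested were 0.00 in males and 0.00 in females. Of all genes tested, 49.6% were higher after nPM in males and 51.2% in females. The counts by list that follow were not tested against these shares. The 13 tested carriers of cofactors, pyrimidines, glutathione and iron had medians of 0.00 in males and 0.04 in females. The 9 amino acid carriers had -0.01 and -0.09, and the 3 relatives of the uncoupling proteins had -0.05 and 0.02. The 6 carriers of phosphate, organic acids and acylcarnitine had -0.04 in males and 0.14 in females, where 5 of the 6 were higher and 0 passed the test. The 6 members with other or unsettled substrates had -0.05 and -0.11, with 5 lower in males and 4 in females. The 5 nucleotide carriers, Slc25a24 among them, had 3 lower members in males and 2 in females.

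Genes that work beside the carriers were examined from lists, and 0 of them passed p under 0.005 with both sexes together, in males, in females or in the interaction. The lists held 4 tested relatives under other symbols, 7 other inner membrane carriers, 9 genes of mitochondrial calcium transport, 3 outer membrane channels, 13 genes of carrier import and 4 enzymes of the malate-aspartate shuttle. At p under 0.05 there was 1 gene, Vdac1, an outer membrane channel, in males (log2 difference -0.12, SE 0.054, limma adjusted p = 0.963). Over all genes tested, 4.28% were under 0.05 in males. The background under 0.005 was 0.0909% to 0.217% in these fits, so few calls would arise in lists of this size.

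Females and males were compared with exposure as a covariate. This contrast moved a large part of the transcriptome, with 31.1% of all genes tested at p under 0.005, 48.4% at p under 0.05 and 40.4% under 0.05 after adjustment. Among the 42 members these shares were 26.2% (11 members), 50% (21 members) and 40.5% (17 members), close to the background. Of the 11 members, 4 were higher and 7 lower in females. Sex, labelled age, EdU injection (if given to males only) and any handling that differed between female and male samples cannot be told apart here. Marker sums also differed. Endothelial markers summed to 170 to 239 CPM in females and 132 to 158 CPM in males, hippocampal neuron markers to 2730 to 4560 and 1730 to 3310 CPM, and astrocyte markers to 1500 to 1800 and 1730 to 2200 CPM. Their part in the differences was not tested.

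Slc25a42 (ENSMUSG00000002346.16, mm10 chromosome 8, 70184340 to 70212305), which carries coenzyme A into mitochondria, had the smallest p of the members. In females the lowest value was 10.1, the median 14.3 and the highest 16.6 CPM, and in males these were 4.96, 7.35 and 10.5 CPM. The ranges overlapped narrowly. The log2 difference, females minus males, was 0.88 (SE 0.11, limma adjusted p = 8.97e-06), a fold of 1.84. The other 3 members higher in females were Slc25a23 at 0.33 (SE 0.067, limma adjusted p = 0.000626), Slc25a27, a neuronal relative of the uncoupling proteins, at 0.25 (SE 0.058, limma adjusted p = 0.00202), and Slc25a35, of unsettled substrate, at 0.46 (SE 0.12, limma adjusted p = 0.00458).

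Both abundant translocases were lower in females. Slc25a4 ranged from 382 to 490 CPM in females (median 445) and from 469 to 567 CPM in males (median 525), a log2 difference of -0.28 (SE 0.051, limma adjusted p = 0.000179). Slc25a5 ranged from 148 to 214 CPM in females and from 175 to 237 CPM in males, with -0.27 (SE 0.072, limma adjusted p = 0.00556). It did not pass p under 0.005 in the libraries under 1000 CPM of choroid plexus markers. The other tested X-linked members were Slc25a53 and Slc25a14. Slc25a53 was lower in females by the adjusted p, at -0.20 (limma adjusted p = 0.0274), and Slc25a14, at -0.14, did not pass (limma adjusted p = 0.0795). The other members lower in females at p under 0.005 were Slc25a16 (-0.31), associated with coenzyme A transport, Slc25a32 (-0.30), a carrier of folate and flavin, Slc25a11 (-0.26), Slc25a46 (-0.25) and Slc25a18 (-0.43). The summed RPKM of the family was 623 ± 43.7 (SD, n = 5) in female controls and 621 ± 36.3 in females after nPM. In males it was 710 ± 17.7 for controls and 693 ± 33.0 after nPM.

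In the 13 libraries under 1000 CPM of choroid plexus markers, 5 members passed p under 0.005 between the sexes, namely Slc25a42, Slc25a4, Slc25a16, Slc25a23 and Slc25a35. This was 11.9% of the 42 members, beside 14.5% of all genes tested in those libraries. The difference of Slc25a27 was 0.15 there (SE 0.082) and did not pass. Slc25a18 also missed the threshold when control female 3, control male 1, nPM female 1, nPM female 4 or nPM male 4 was left out, with log2 differences of -0.42 to -0.38, and with the meningeal fibroblast level as a covariate (-0.38).

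**Figure D4:**
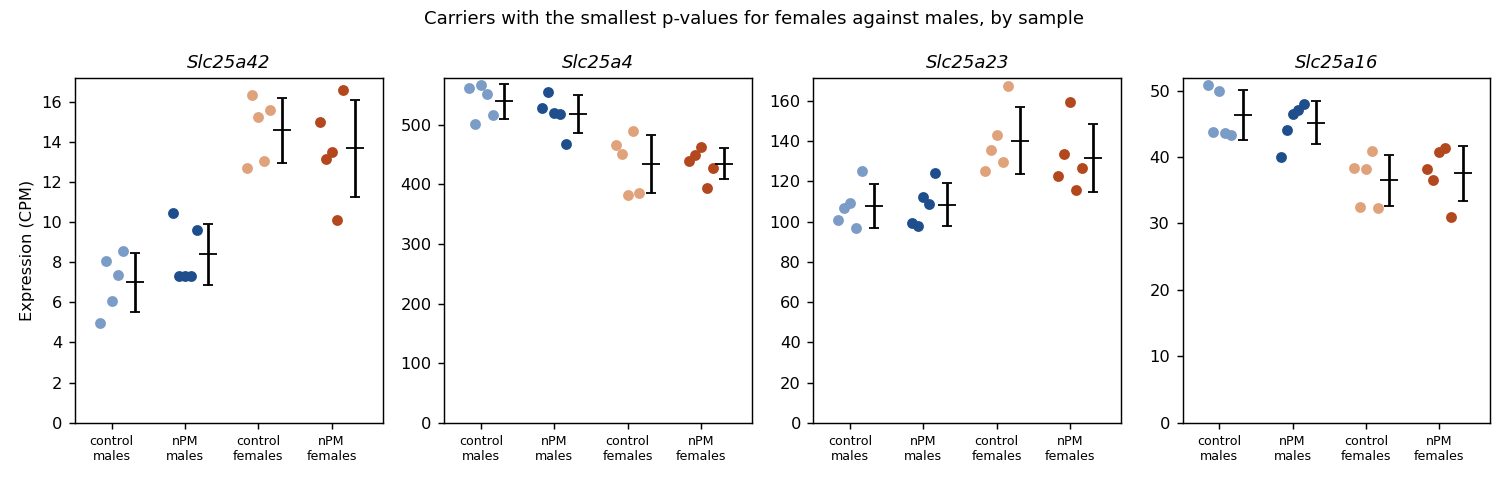
Expression in CPM of the 4 carriers with the smallest p-values between the sexes, with 1 point per sample and the mean ± SD of the 5 samples of each group in black. Slc25a42 and Slc25a23 are higher in the female groups, and Slc25a4 and Slc25a16 lower, with some overlap between female and male samples in each panel.

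Over the 10 female and 10 male libraries, 0 of the 42 members had ranges without overlap (background 4.82%). Among the partner genes, all 3 outer membrane channels were lower in females at p under 0.005, where 31.1% of all genes passed in either direction, with Vdac3 at -0.38 (SE 0.065, limma adjusted p = 0.000132), Vdac2 at -0.28 and Vdac1 at -0.20. Of the 13 genes of carrier import 11 were lower, beside 10341 of all 19797 genes, and 8 passed p under 0.005, against the same background of 31.1%. The log2 differences of the 13 ranged from -0.74 to 0.05, with a median of -0.34. Among the 8 that passed, Tomm22 (-0.40) and Tomm20 (-0.40) belong to the outer membrane translocase. Timm22 (-0.34) and Timm29 (-0.31) belong to the complex that inserts carriers into the inner membrane. Of the 4 shuttle enzymes 2 passed, Mdh1 at -0.34 and Got1 at -0.22. Of the 7 other inner membrane carriers 5 passed, and sideroflexins went both ways, with Sfxn2 at 0.64 and the serine carrier Sfxn1 at -0.25. Of the 9 genes of mitochondrial calcium transport 3 passed, and of the 4 relatives under other symbols 1.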

How the data were processed

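RNA of the right hippocampus was depleted of ribosomal RNA and sequenced. Per the labels and the study's methods, the authors trimmed adapters where needed (Trimmomatic), used HISAT2 for alignment to mm10 and featureCounts 1.5.0-p3 for counting on Gencode genes. The deposited values are whole-number counts without normalization. The deposited gene table adds gene lengths and the authors' mean RPKM, which the mean recomputed from the counts matched to 4.9e-11.

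Low counts were removed by filterByExpr with the 4 groups given (minimum count 10, minimum total 15). Counts were scaled by TMM (edgeR 4.0.16, factors 0.958 to 1.06) and fitted by limma-voom (limma 3.58.1, R 4.3.3, offset 0.5 counts) after the study's methods. The fits were nPM with sex as a covariate, nPM in each sex, the interaction, and females minus males. P-values are two-sided, with Benjamini-Hochberg adjustment over all genes tested. RPKM values here use TMM-scaled totals. The naming rule took members under p 0.005, those with the 4 smallest p-values of a fit and those with the 8 highest RPKM. Other members and Vdac1 in males were named after their values were seen. Members, lists and tests were chosen with earlier results of these data known.

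Alternatives were the edgeR quasi-likelihood and DESeq2 1.42.0 Wald tests, RLE scaling, no filter, a replicate block, an age covariate, all 4 groups in 1 fit, and each sample left out. The choroid plexus and meningeal fibroblast settings were added after the data were seen. Fits were tested on simulated data. Squared differences between samples of a group were 14.1 to 76.7 times counting noise (40 pairs). P-values measure the spread between these mice, among which littermates are not marked.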

Additional observations from a re-analysis of the deposited data

Results flagged for a closer look

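The nPM effect on Slc25a24 differed between males and females by -1.06 on the log2 scale in the interaction test (limma adjusted p = 0.987). The exact permutation p = 0.000472 assumes no nPM effect in either sex. All 5 nPM males were below all 5 control males.

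A gap test on log2 CPM within groups of 5 samples was applied to the named members in 80 groups, of which about 1 in 20 (4 groups) would pass by chance, and 2 passed. For Slc25a34, control female 2 was the highest of its group at 5.92 CPM, with a gap of 0.78 of the group's range on the log2 scale to the next value. For Slc25a25, nPM male 1 was the highest of its group at 61.3 CPM, with a gap of 0.711 of the range on the log2 scale.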

How the results depend on the processing

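No log2 difference followed for a named member changed sign under the alternatives run, and 231 such values stayed on their side of p 0.005 while 9 lost the call. With both sexes together 0 members passed under every alternative, and 0 to 1 when 1 sample was left out. In males 1 member passed, but 0 with the replicate block (Slc25a24 at -0.79, SE 0.22) and 0 in the libraries under 1000 CPM of choroid plexus markers. Between groups, deviations of same-numbered samples from their group means had a median correlation of -0.00646 (30 pairs, 10 above 0.1). For differently numbered samples the median was 0.00171 (120 pairs, 33 above 0.1). Whether the numbers mark shared litters or batches was not tested. The interaction gave 1 member, and 2 in the libraries under 1000 CPM (background there 0.603%), where Slc25a42 was added (log2 difference 0.92, SE 0.27). Between the sexes 11 members passed, and 5 in those libraries, which are fewer. Leaving out 1 sample kept Slc25a24 past the threshold in males (-0.86 to -0.66) and in the interaction (-1.15 to -0.95). Over all genes, the number at p under 0.005 was 14 to 71 with both sexes (28 in the report's test), 32 to 130 in males (41), 13 to 87 in females (18), 23 to 149 in the interaction (43) and 3002 to 6731 between the sexes (6147). Depth limits Slc25a24, with 34 to 134 counts per library.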
